A study of Homo sapiens with 2 samples.

Results

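The 71 genes described here are the histone genes whose symbols start with HIST1H, HIST2H, HIST3H or HIST4H, chosen by symbol alone out of 33694 genes in the count tables. They comprise 6 genes of the H1 family, 17 of H2A, 18 of H2B, 15 of H3 and 15 of H4, and 55 of them carry the prefix HIST1H, 12 HIST2H, 3 HIST3H and 1 HIST4H. The RNA came from 2 droplet libraries, 1 per condition, of stem cell derivatives grown from the human embryonic stem cell line Mel1-INS-GFP, in which GFP reports the insulin gene. Both libraries carried the genotype iSOX9KO, a doxycycline-inducible Cas9 with guides against SOX9 in a line that is 1 clone; cells with a high reporter signal had been sorted and reaggregated into clusters, and live cells of these were sorted again for the droplets. The library labelled DOX came from a culture given doxycycline at 2 ug/ml from day 12 of the differentiation, and the library labelled no DOX from a culture that was not. Throughout, values given as a pair are in the order library labelled no DOX, then library labelled DOX. SOX9, which encodes a transcription factor of duct and progenitor cells, was counted at 2.93 and 3.78 CPM (UMIs per 1000000 UMIs), and a Cas9 lesion need not lower a transcript count. Most of its UMIs came from the duct-like cells defined below, which gave 0.80% and 1.01% of the UMIs of the libraries: SOX9 was at 245 (226 to 265) and 282 (264 to 302) CPM there, and at 0.997 and 0.957 CPM in the endocrine classes. It was thus not lower under the label DOX in the cells that hold most of it. These counts cannot show whether SOX9 was edited or which culture a library came from, and the libraries are called by their labels. Whether the labels were exchanged was not tested, and an exchange would turn the sign of every ratio between the libraries.

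Histones package DNA: H2A, H2B, H3 and H4 build the core particle of the nucleosome and H1 binds the linker DNA beside it. Most of the genes studied here are replication-dependent, which means that they are transcribed when DNA is copied in S phase and that their mRNA ends in a stem-loop in place of a poly(A) tail. Some of them also give longer, polyadenylated transcripts, which are known from cells that have left the cell cycle. The droplet assay primes on poly(A), so it samples polyadenylated transcripts and those primed by internal A-rich stretches, and the levels below are not the amounts of all histone mRNA.

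The stem-loop is shown first because nearly all members carry it, whether their RNA was higher or lower in the proliferating cells described below. Of the 71 members, 66 matched the GENCODE 44 annotation of GRCh38 (hg38) and 63 held its letters within 150 bases after a stop codon, starting 23 to 63 bases after it, with a median of 36. HIST1H2BI, HIST1H3E and HIST1H4L matched the annotation and did not hold the letters in that window. The 63 sequences took 7 forms, of which 1 gene each is shown. The first below was found in 36 members, the second in 10, the third in 10, the fourth in 4, and the last 3 in 1 member each, and the 16 bases of the stem-loop, at the coordinates given, are in capitals on the strand of the gene.
HIST1H2AC, chr6:26124669-26124684, plus strand: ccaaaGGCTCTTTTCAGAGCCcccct
HIST1H4C, chr6:26104317-26104332, plus strand: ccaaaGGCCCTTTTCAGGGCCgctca
HIST1H2BD, chr6:26158587-26158602, plus strand: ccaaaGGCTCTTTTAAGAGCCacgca
HIST1H4I, chr6:27139654-27139669, plus strand: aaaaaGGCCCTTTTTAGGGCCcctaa
HIST1H2AG, chr6:27133515-27133530, plus strand: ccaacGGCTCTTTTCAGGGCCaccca
HIST2H2AC, chr1:149887391-149887406, plus strand: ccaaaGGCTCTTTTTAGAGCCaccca
HIST1H2AK, chr6:27837885-27837900, minus strand: aaaaaGGTTCTTTTCAGAGCCaccta

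Many H2A and H2B genes stand head to head and share 1 promoter. The sequences between the genes of 2 such pairs are shown because the partners of each pair went opposite ways between proliferating progenitor-like and endocrine cells, as described below. They are read from hg38 on the plus strand, and capitals mark matches on either strand to the octamer ATTTGCAT, to CCAAT or to TATAAA. The region between HIST1H2BC and HIST1H2AC is chr6:26123927-26124144, and that between HIST2H2BE and HIST2H2AC is chr1:149886683-149886917.
HIST1H2BC and HIST1H2AC: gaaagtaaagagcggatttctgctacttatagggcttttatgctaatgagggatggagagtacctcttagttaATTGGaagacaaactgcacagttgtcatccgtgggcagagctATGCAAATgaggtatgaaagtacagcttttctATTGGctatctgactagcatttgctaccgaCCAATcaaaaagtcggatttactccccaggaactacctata
HIST2H2BE and HIST2H2AC: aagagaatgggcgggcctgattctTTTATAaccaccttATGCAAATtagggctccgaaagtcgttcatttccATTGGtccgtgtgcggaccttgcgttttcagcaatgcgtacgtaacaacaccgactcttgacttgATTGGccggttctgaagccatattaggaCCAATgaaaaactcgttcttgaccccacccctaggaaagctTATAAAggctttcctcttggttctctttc

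Across RefSeq promoters (250 bases before to 50 bases after the start of a gene, GRCh38), the octamer letters were found on either strand in 39.4% of 66 members and in 1.80% of all 27305 promoters. They were present in 68.8% of H2A promoters and 77.8% of H2B promoters, in 7.69% of H3 promoters, and in 0 of 6 H1 and 0 of 13 H4 promoters. The windows of head-to-head partners overlap, so 1 octamer can count for both the H2A and the H2B gene. CCAAT was found in 84.8% of members and 35.7% of all promoters, and TATAAA in 66.7% and 12.0%. By family, CCAAT was in every H1, H2A, H2B and H3 promoter, and in 23.1% of the 13 H4 promoters. Matches to different motifs overlapped in 0 of the 66 member promoters, while TATAAA and its reverse complement can overlap each other. These are matches of letters, and binding was not measured.

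The deposited tables held 30288 and 31817 barcodes with 550240855 and 520849221 UMIs, and 44680 cells were kept. Clustering in which the histone genes were left out gave 6 classes named from marker genes. The beta-like class, led by metallothionein genes beside IAPP, held 16863 cells, the beta cell progenitor-like class 10499, the alpha-like class 9144 and the delta-like class 4550; these 4 are called the endocrine classes. The proliferating progenitor-like class, led by RRM2, TOP2A and PBK, held 973 cells (478 and 495 by library), and the duct-like class, led by TM4SF1 and GUCA2A, held 331 (152 and 179). A further 2320 shallow cells (median 1972 UMIs), in which mitochondrial genes gave a median of 70.9% of UMIs, were left unnamed. The classes are not equally deep: the median per cell was 13494 UMIs in the endocrine classes, 16249 in the proliferating progenitor-like class and 14496 in the duct-like class. The 2 files shared 369 barcodes, of which 139 were among the cells kept in both libraries.

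Of the 71 members, 57 had at least 1 UMI in the cells kept and 14 had none, of which 10 also had none over all barcodes. The 14 were HIST2H3PS2, HIST2H3C, HIST2H3A, HIST3H3, HIST1H2BA, HIST1H3A, HIST1H4A, HIST1H2BB, HIST1H3C, HIST1H3D, HIST1H4F, HIST1H4G, HIST1H3I and HIST1H4L. Histone genes have near-identical copies whose reads may not be assigned to 1 gene, so a count of 0 does not show that a gene was silent. The 4 members with the most UMIs, HIST1H2AC, HIST1H4C, HIST3H2A and HIST1H1C, held 65.6% of all histone UMIs. Levels below pool the UMIs of all cells in a class and divide them by that class's total, per 1000000, with an exact Poisson 95% interval. A UMI stands for 1 captured transcript, so values were not divided by gene length, and they are compared mainly between cells. Where shares or quotients of different genes are given, they also depend on how much of each gene's RNA is captured. With 1 library per condition there is no replicate, no test was made, and all intervals cover counting error only.

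Summed over all members, histone RNA was highest in the proliferating progenitor-like and duct-like cells. The sum was 2496 and 2604 CPM in the proliferating progenitor-like class, and 2170 and 2093 CPM in the duct-like class. The endocrine classes lay far below and close to each other: 960 and 726 CPM in beta-like, 846 and 746 in beta cell progenitor-like, 988 and 761 in alpha-like, and 847 and 654 in delta-like cells. The make-up of the sum differed between these groups. H2A genes gave 45.6% of histone UMIs in the endocrine classes and 13.3% in the proliferating progenitor-like class, while H4 genes gave 18.9% and 59.9%. HIST1H4C alone gave 11.8% and 57.6%.

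**Figure D1:**
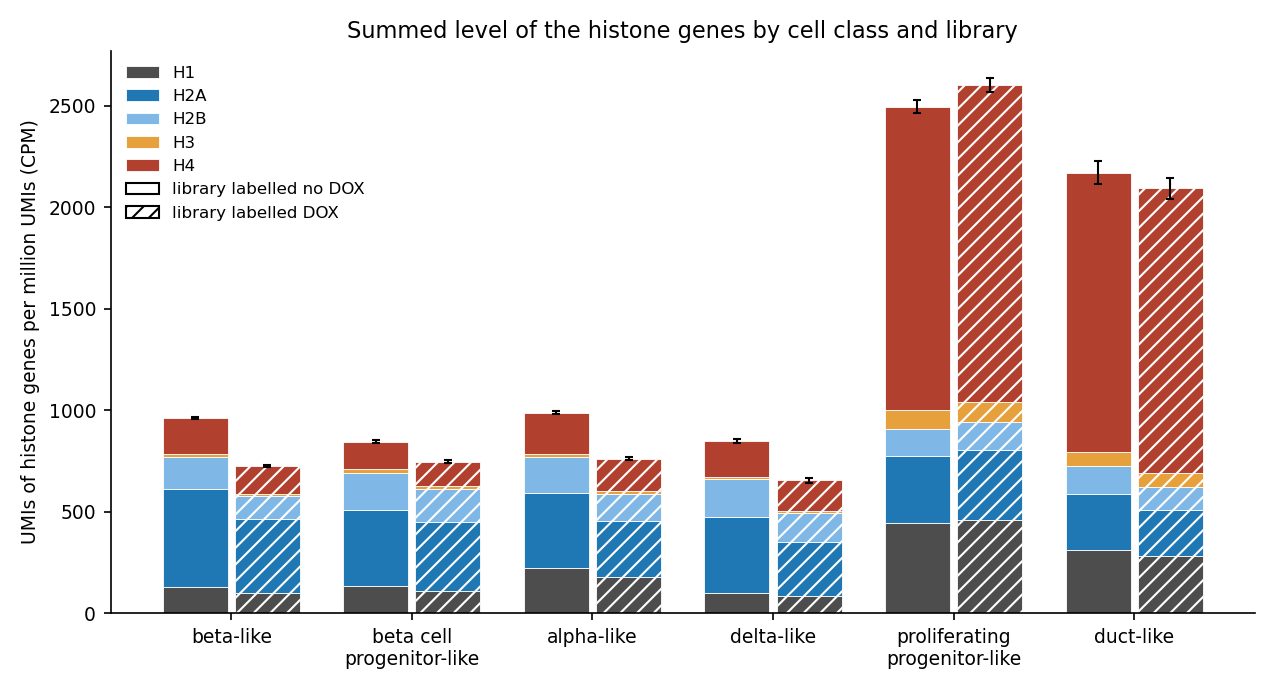
Summed level of the histone genes in UMIs per 1000000 UMIs (CPM, y axis) in each of the 6 named classes, plain bars for the library labelled no DOX and hatched bars for the library labelled DOX, stacked by family, with exact Poisson 95% intervals on the sums. The 2 right-hand classes reach 2093 to 2604 CPM, mostly from H4 genes, and the 4 endocrine classes lie between 654 and 988 CPM.

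The proliferating progenitor-like cells were compared with the 4 endocrine classes together. These groups differ in cell type as well as in the cell cycle, and a ratio cannot tell these apart. The sum was higher by 1.62 on the log2 scale (1.60 to 1.63), and by 1.43 and 1.83 in the libraries taken singly. HIST1H4C carried most of this: without it the log2 ratio was 0.56 (0.54 to 0.58). Of the 71 members, 35 had at least 5 CPM in either group, and of these 22 were higher by a log2 ratio of 1 or more, where 11.4% of the 11130 genes at that level were, and 7 were lower by 1 or more, where 2.35% were. The median log2 ratio was 2.58 over the 35 members and 0.11 over all genes at that level. Of the 35, 18 reached 5 CPM through the proliferating progenitor-like cells alone and 1 through the endocrine classes alone, as did 876 and 396 of the 11130 genes. Such a gene was bound to be higher where it passed, so the counts and ratios here and by family are a description of the 35 and not of all members. The beta-like cells, the largest class, entered the endocrine group with most weight.

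Of the linker histone genes, HIST1H1C and HIST1H1E reached 5 CPM in both groups and were higher in the proliferating progenitor-like cells, while HIST1H1B and HIST1H1D reached it there alone. HIST1H1B, which encodes a replication-dependent H1 (H1.5), was counted at 36.8 and 33.3 CPM in the proliferating progenitor-like cells, against 0.22 and 0.15 CPM in the endocrine classes, a log2 ratio of 7.56 (7.26 to 7.87). HIST1H1D (H1.3) was at 81.7 and 80.3 CPM against 2.32 and 1.64 CPM, a log2 ratio of 5.35 (5.24 to 5.47). HIST1H1C (H1.2) differed least: 237 and 248 CPM against 129 and 97.2 CPM, a log2 ratio of 1.09 (1.05 to 1.14), and its ratio in the library labelled no DOX alone was 0.88.

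Of 11 H2A genes, 7 reached 5 CPM in the proliferating progenitor-like cells alone. Among these, HIST1H2AL, HIST1H2AJ, HIST1H2AH and HIST1H2AM, which encode canonical H2A, were higher in the proliferating progenitor-like cells by log2 ratios of 6.39, 5.50, 5.34 and 4.53. HIST1H2AH was counted there at 44.5 and 59.4 CPM, against 1.32 and 1.23 CPM in the endocrine classes. HIST1H2AC, which passed in both groups, was lower, with 50.9 and 40.1 CPM against 215 and 159 CPM, a log2 ratio of -2.04 (-2.14 to -1.93), as did HIST3H2A, with 44.5 and 43.5 CPM against 152 and 131 CPM, a log2 ratio of -1.68 (-1.79 to -1.58). In both genes each endocrine value was above each proliferating value. HIST1H2AE was also lower, at -1.07 (-0.94 in the library labelled DOX alone).

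Among H2B genes 4 of 10 were higher and 3 lower, where 11.4% and 2.35% of all genes were. HIST1H2BO, which reached 5 CPM through the proliferating progenitor-like cells alone, had the highest ratio, with 4.71 and 5.42 CPM against 0.06 and 0.07 CPM (6.25, 5.68 to 6.84). On the lower side HIST1H2BD was at 14.0 and 12.7 CPM against 45.8 and 44.2 CPM (-1.75, -1.95 to -1.56), HIST1H2BG at 10.8 and 7.56 CPM against 35.0 and 17.9 CPM (-1.52, -1.76 to -1.29), and HIST2H2BE at 11.9 and 12.6 CPM against 35.0 and 25.1 CPM (-1.30, -1.51 to -1.10, and -0.99 in the library labelled DOX alone). For HIST1H2BG the endocrine level itself differed between the libraries, which is taken up below.

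The largest ratio of all 35 members was that of an H3 gene. Of 4 H3 genes, 3 reached 5 CPM in the proliferating progenitor-like cells alone and were bound to be higher there. They were HIST1H3B, HIST1H3F and HIST1H3G. Their ratios rest on few endocrine UMIs, 35 for HIST1H3B. HIST1H3B was counted at 28.5 and 32.9 CPM in the proliferating progenitor-like cells, against 0.06 CPM in the endocrine classes of each library, a log2 ratio of 9.0 (8.51 to 9.54). HIST1H3F (8.12) and HIST1H3G (6.56) followed, and HIST1H3H, an H3 gene with a longer annotated transcript, was at 0.86. HIST1H4C was at 1436 and 1502 CPM against 101 and 94.1 CPM, a log2 ratio of 3.91 (3.89 to 3.93). HIST1H4E, another H4 gene, was lower, at 19.7 and 15.4 CPM against 46.5 and 24.8 CPM, a log2 ratio of -1.03 (-1.20 to -0.86) that was -0.69 in the library labelled DOX alone.

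**Figure D2:**
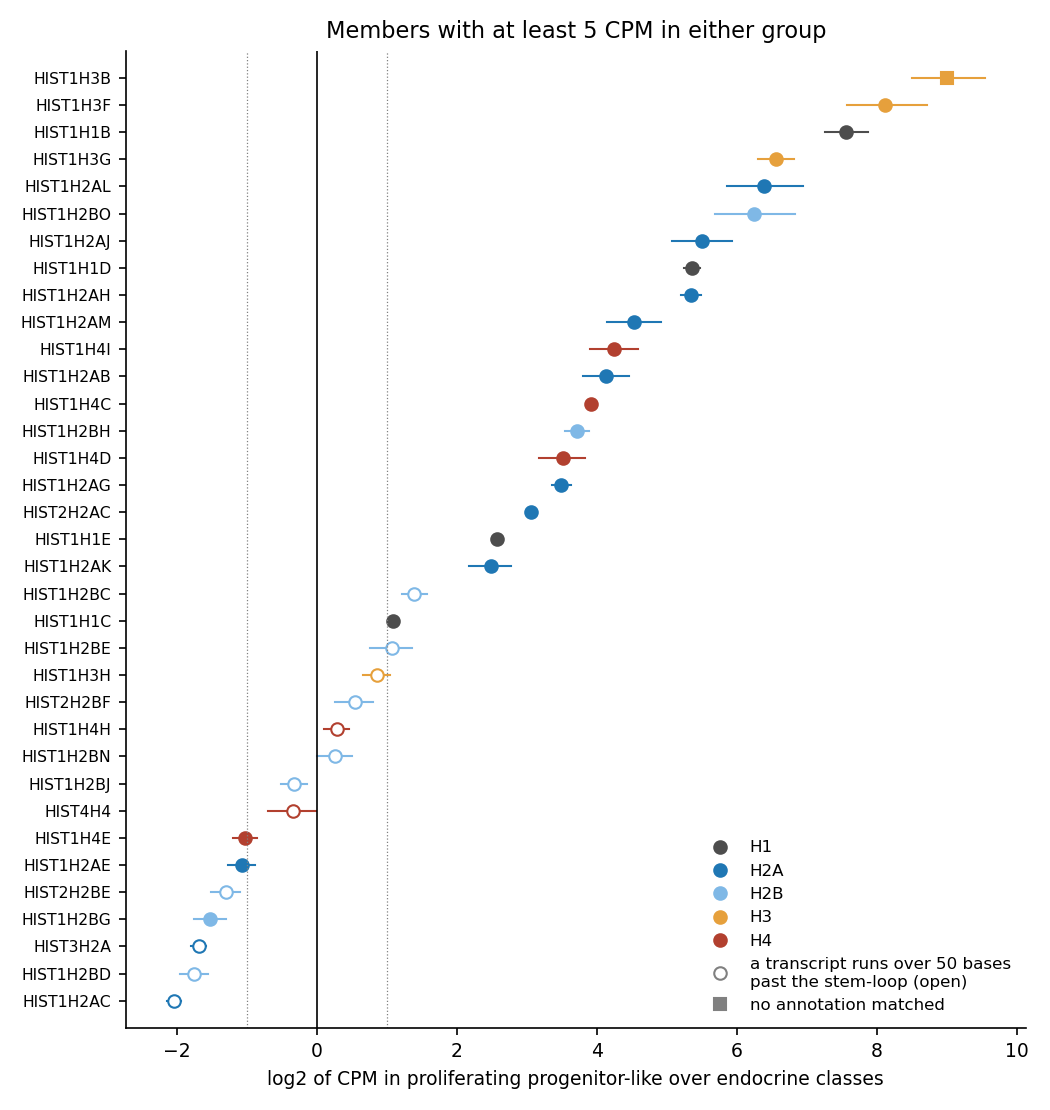
Log2 ratio of CPM in the proliferating progenitor-like class over the 4 endocrine classes (x axis) for the 35 members with at least 5 CPM in either group, coloured by family, with 95% intervals for counting error and dotted lines at -1 and 1. The ratios run from -2.04 for HIST1H2AC to 9.0 for HIST1H3B, and open points, members with a transcript annotated more than 50 bases past the stem-loop, lie in the lower part of the plot.

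Of 13 head-to-head pairs with a ratio for both partners, 10 had ratios of the same sign and 3 of opposite sign, counting members under 5 CPM as well. The share of same signs among other pairings of members was not counted, so the 10 have no background. HIST1H2BO was counted with HIST1H2AM and again with HIST1H3J, which overlaps HIST1H2AM. HIST1H2AD, paired with HIST1H2BF, was near the floor, at 0.061 CPM in the proliferating progenitor-like cells. HIST1H2BC and HIST1H2AC share the promoter printed above, yet their log2 ratios were 1.40 (1.21 to 1.57) and -2.04. The partners HIST2H2BE and HIST2H2AC also differed in sign, at -1.30 and 3.06 (2.99 to 3.14), and HIST2H2AC was counted at 102 and 116 CPM in the proliferating progenitor-like cells against 13.2 and 12.9 CPM in the endocrine classes. The third such pair, HIST1H2BJ and HIST1H2AG, was at -0.33 and 3.49, while the partners HIST1H2BG and HIST1H2AE, at -1.52 and -1.07, were both lower. The annotated 3' end also varied among the members. A transcript annotated to run more than 50 bases past the stem-loop was found for 2 of the 21 higher members with an annotated stem-loop (HIST1H2BC and HIST1H2BE), for 4 of the 7 lower members (HIST1H2AC, HIST1H2BD, HIST2H2BE and HIST3H2A), and for 6 of the 6 members between. HIST1H2BG, HIST1H4E and HIST1H2AE were lower without such a transcript. Of the 35 members, 18 reached 5 CPM through the proliferating progenitor-like cells alone and were bound to be higher there. The counts by 3' end thus describe the members that passed, and a link of the 3' end with direction was not tested. The share among members under 5 CPM was not counted. HIST1H2BC is annotated across the position of HIST1H4C on the other strand, and HIST1H3J overlaps HIST1H2AM on the same strand. The annotation and strand setting behind the deposited matrices are not given in the sources used here, so values of these overlapping genes are uncertain.

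**Figure D3:**
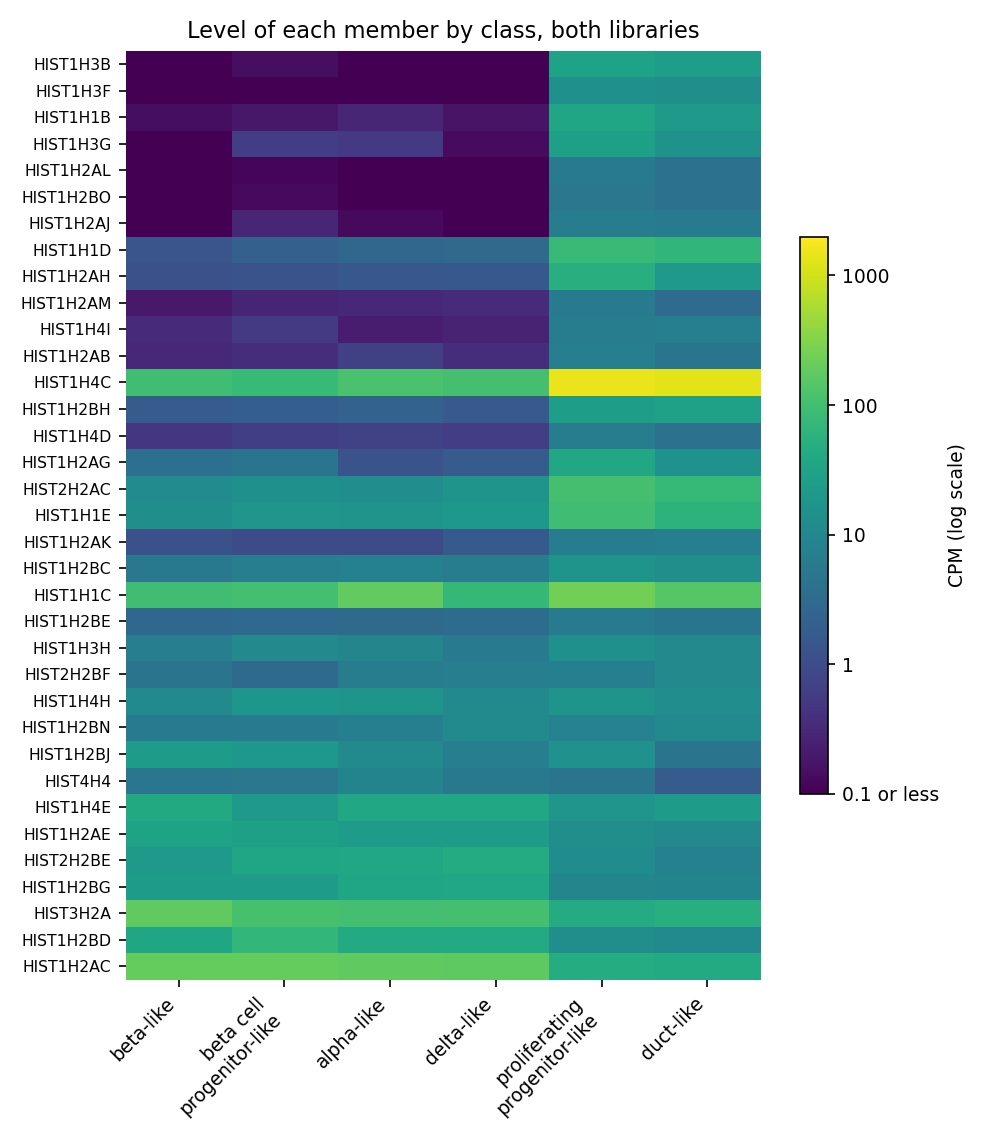
Level of the same 35 members (rows, ordered by the ratio of the proliferating progenitor-like class over the endocrine classes) in each named class (columns) over both libraries, in CPM on a log colour scale with values of 0.1 or less in the darkest colour. HIST1H4C is brightest in the proliferating progenitor-like and duct-like columns, at 1468 and 1333 CPM, and HIST1H2AC is brighter in the 4 endocrine columns, at 173 to 193 CPM, than in those 2, at 45.7 and 43.3 CPM.

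HIST1H4C was also counted in the endocrine classes, where some genes of the cell cycle were near 0. Whole lists of S and G2/M genes were not, at 3.38 and 7.29 UMIs per 10000 there. In the proliferating progenitor-like class these lists were at 41.1 and 76.9, and HIST1H4C was at 97.6 CPM in the endocrine classes and 1468 CPM in that class. TOP2A, the mitotic topoisomerase, was at 1.34 CPM in the endocrine classes and 597 CPM in the proliferating progenitor-like class. For each UMI of TOP2A there were 72.7 UMIs of HIST1H4C in the endocrine classes and 2.46 in the proliferating progenitor-like class. The quotient was also higher in the endocrine classes for HIST2H2AC (9.72 and 0.18), HIST1H2AG (2.38 and 0.060), HIST1H1D (1.48 and 0.14) and HIST1H1B (0.14 and 0.059). For HIST1H3B it was 0.044 and 0.051, and for MKI67, a proliferation marker, 0.43 and 0.41. For UBE2C and CDK1, also genes of the cell cycle, the quotient was higher in the endocrine classes too, at 0.66 and 0.46 and at 0.52 and 0.41. TOP2A was among the markers that named the proliferating progenitor-like class, as were MKI67, UBE2C and CDK1. Any gene with a smaller ratio between the classes than TOP2A was bound to have a higher quotient in the endocrine classes. The share of all genes with a higher quotient there was not counted, so the quotients are a description only. Leaving out the 1297 endocrine cells whose share of S and G2/M genes exceeded the 99th percentile of the beta-like cells left the summed endocrine histone level at 832 CPM, and those 1297 cells, which were shallower (median 8960 UMIs), were at 772 CPM. By class, cells above and below that limit were at 945 and 831 CPM in beta-like, 732 and 804 in beta cell progenitor-like, 786 and 892 in alpha-like and 810 and 768 in delta-like cells.

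Cell by cell, after each cell was thinned to 5000 UMIs and shallower cells were left out, a UMI of HIST1H4C was found in 29.6% to 41.9% of cells of the endocrine classes by library, and in 87.8% and 88.1% of 441 and 469 proliferating progenitor-like cells. The unthinned shares were 50.8% to 71.7%, and 94.6% and 95.6%. HIST1H3B was found in 0% to 0.10% of thinned endocrine cells, and in 12.7% and 12.6% of proliferating progenitor-like cells (31.8% and 33.3% unthinned). It was far rarer than HIST1H4C in the proliferating progenitor-like cells too, so its share gives no background share for HIST1H4C. HIST1H2AC was found in 62.3% and 50.9% of thinned beta-like cells and in 20.4% and 16.4% of proliferating progenitor-like cells (88.1% and 79.2%, and 49.0% and 38.6%, unthinned). Pooled over cells, the endocrine and proliferating levels were 0.060 and 30.6 CPM for HIST1H3B and 97.6 and 1468 CPM for HIST1H4C. No empty droplets were analysed here, and the part of free RNA in the HIST1H4C share was not tested. Thinning left out 63 proliferating progenitor-like cells.

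The histone sum of the duct-like cells was above the endocrine classes by a log2 ratio of 1.36 (1.33 to 1.38), and without HIST1H4C by 0.12 (0.07 to 0.16). Of 31 members compared, 18 were higher by 1 or more, where 20.2% of 11706 genes were, and 8 lower, where 17.1% were. HIST1H3B, HIST1H1B, HIST1H1D and HIST1H2AG were among those that reached 5 CPM in the duct-like cells alone and were bound to be higher there. How many did so was not counted, so these counts describe the 31 and not all members. HIST1H4C was at 1312 and 1351 CPM and HIST1H3B at 22.1 and 27.5 CPM by library, while HIST1H2AC was at 50.9 and 37.0 CPM. Of the 331 cells, 304 lay in the cell cycle range set from the beta-like cells and had 2252 CPM, and the 27 outside it had 659 CPM (585 to 740). In those 27 cells HIST1H2AC was below the endocrine cells outside the range, by a log2 ratio of -1.49 (-2.07 to -0.97), where 23.1% of 11321 genes were lower by 1 or more. TOP2A was at 330 CPM in the duct-like cells. Against the duct-like cells, 3 of 36 members were higher by 1 or more in the proliferating progenitor-like cells, where 20.8% of 11793 genes were, namely HIST1H2BJ (1.73, 1.13 to 2.38), HIST1H2AH (1.32) and HIST1H2AG (1.18), and 2 were lower, where 13.4% were, namely HIST2H2AB (-1.83) and HIST1H2BF (-1.08). HIST1H2BJ reached 5 CPM in the proliferating progenitor-like cells alone and HIST1H2BF in the duct-like cells alone. Each was therefore bound to be higher where it passed.

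Within the proliferating progenitor-like class the histone level differed along an order of phase. Cells were ordered by the standardized share of a list of S genes minus that of a list of G2/M genes, neither of which holds a member. The sum was 1920 CPM at the S end (324 cells), 2781 CPM in the middle (325 cells) and 2824 CPM at the G2/M end (324 cells), and the log2 ratio of the S end over the G2/M end was -0.56 (-0.59 to -0.52). With narrower ends it was -0.24. Of 38 members compared, 0 were higher at the S end by 1 or more, where 7.59% of 11264 genes were, and 7 were lower, where 3.06% were. The S end was shallower, with a median of 14037 UMIs against 18034.

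Within the 324 cells of the G2/M end the level was not even. In 10 narrower bins of the order, added after the data had been seen, the sum was 1375 CPM in bin 1 at the G2/M end, 4260 CPM (4166 to 4356) in bin 3, and 1496 CPM in bin 10 at the S end, where bins 1 to 3 hold 98 cells each and lie within those 324 cells. HIST1H4C followed the same course, from 639 to 2540 and to 782 CPM. HIST1H2AC did not peak there, with 57.1 CPM in bin 1, 53.3 CPM in bin 3 and 23.4 CPM in bin 10. When cells were split by the median of each list, the 212 cells high in both lists had 4453 CPM and the 213 cells low in both had 1552 CPM. The bins are ranges of a score, not cell types, and cells high in both lists can lie anywhere along it.

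**Figure D4:**
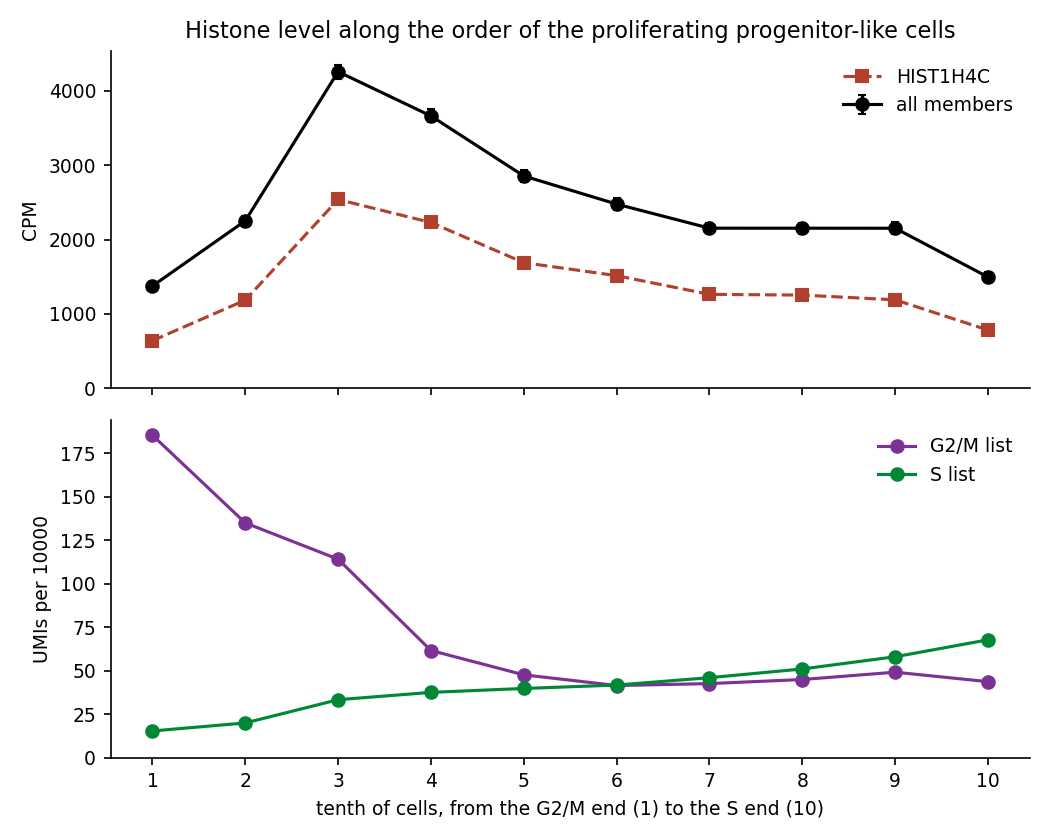
Upper panel, level (CPM, y axis) of all members summed, with exact Poisson 95% intervals, and of HIST1H4C in 10 bins of the proliferating progenitor-like cells ordered from the G2/M end (1) to the S end (10). Lower panel, UMIs per 10000 of the G2/M and S lists in the same bins. The histone sum is 4260 CPM in bin 3 and 1375 and 1496 CPM in bins 1 and 10.

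Among the endocrine classes the members differed less, and mostly in single genes. HIST1H1C was highest in alpha-like cells, at 204 and 161 CPM by library against 77.9 and 63.4 CPM in delta-like cells. HIST3H2A was highest in beta-like cells, at 203 and 157 CPM, and lay between 93.2 and 119 CPM in the other 3 classes of both libraries. HIST1H2BD was highest in beta cell progenitor-like cells, at 69.8 and 70.0 CPM against 35.0 to 44.9 CPM elsewhere. HIST1H2BJ was at 27.3 and 20.8 CPM in beta-like cells and at 7.37 and 6.38 CPM in delta-like cells. For these 4 genes the class with the highest level was the same in both libraries, while the order of the lower classes changed for HIST3H2A and HIST1H2BD. In the delta-like class 1 of 18 members was lower than in the other endocrine classes by 1 or more, where 8.48% of 10548 genes were, and 0 were higher, where 2.84% were. No member passed that fold in the other endocrine classes, where 2.42% of genes were higher and 9.95% lower in beta-like, 22.2% and 4.45% in beta cell progenitor-like, and 4.35% and 7.39% in alpha-like cells. With finer clusters, the Beta-2-like cluster, led by ZFP42, ASIC1 and WSCD2, had 1053 CPM in sum and the 2 Beta-1-like clusters 727 and 687 CPM. These do not cover all beta-like cells. Several finer clusters met no naming rule, the largest with 6926 and 6499 cells at 775 and 776 CPM.

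The libraries were then compared with each other. Over all cells the histone sum was 977 and 789 CPM, a log2 ratio (library labelled DOX over the other) of -0.31 (-0.32 to -0.30). Of the 19 members with at least 5 CPM in either library, 18 were below 0, the exception being HIST2H2AC at 0.02 (-0.04 to 0.07), and their median was -0.36, against -0.006 over all 10443 genes at that level. By the size of the difference, 3 members were lower by 0.5 or more, where 0.661% of all genes were, and 0 were higher, where 0.393% were. Every member has the same 2 libraries behind it, so the members are not independent evidence of a difference.

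The 3 were HIST2H2BF, HIST1H2BG and HIST1H4E. HIST2H2BF, an H2B gene with 2 exons in its longest form, was counted at 6.74 and 3.23 CPM, a log2 ratio of -1.06 (-1.17 to -0.95). It reached 5 CPM in the library labelled no DOX alone, so it was bound to be lower in the other library. HIST1H2BG was at 34.1 and 17.4 CPM (-0.97, -1.02 to -0.92), and HIST1H4E at 45.9 and 24.5 CPM (-0.90, -0.95 to -0.86). In each of the 4 endocrine classes all 3 were lower, with log2 ratios of -0.93 to -1.22, -0.68 to -1.08 and -0.76 to -1.08. Further down came HIST4H4 (-0.49), HIST2H2BE (-0.48), HIST1H3H (-0.47), HIST1H2AC (-0.44), HIST1H2BC (-0.41), HIST1H1C (-0.38) and HIST1H4H (-0.36), and HIST1H2AC was at 208 and 154 CPM. Nearest to 0, beside HIST2H2AC, were HIST1H4C (-0.04), HIST1H1E (-0.05), HIST1H2BD (-0.06) and HIST1H2BN (-0.11).

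The size of the difference varied between classes. The sum differed by -0.40 in beta-like, -0.18 in beta cell progenitor-like, -0.38 in alpha-like and -0.37 in delta-like cells, and by 0.061 (0.033 to 0.089) in proliferating progenitor-like and -0.05 (-0.10 to 0.00) in duct-like cells. In the endocrine classes together 19 of the 19 members were below 0, and 14 were below 0 in each of the 4 classes separately. The share of all genes below 0 was not counted, so these counts of signs have no background. By 0.5 or more, 0.656% of 10364 genes were lower and 0.386% higher in the endocrine classes together. In beta-like cells 7 of 19 members with at least 5 CPM there were lower by 0.5 or more, where 0.894% of genes were. In the proliferating progenitor-like cells 10 of the same 19 members as over all cells were below 0 with a median of -0.02, and 1 of 37 members with at least 5 CPM there was lower by 0.5 or more, where 2.32% of genes were. In the duct-like cells 14 of those 19 members were below 0 with a median of -0.41, and HIST3H2A, HIST1H2AC, HIST1H2BG, HIST1H1D and HIST1H4H had intervals below 0, although the sum, of which HIST1H4C gave 62.7% there, was near 0. Ratios were widely spread in this small class, where 12% of 11031 genes were lower and 10.2% higher by 0.5 or more. HIST2H2BF was at 6.36 and 7.94 CPM in the proliferating progenitor-like cells, a log2 ratio of 0.32 with an interval of -0.23 to 0.87. Within the endocrine classes, the members lower in the proliferating progenitor-like class differed by -0.39 in sum. Members higher there, HIST1H4C among them, differed by -0.25, and those between by -0.38. The medians over the members of these groups were closer, at -0.43, -0.33 and -0.43. Weighting the 6 named classes equally gave -0.13 for the sum of all members. The difference between classes in the library ratio was not tested.

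**Figure D5:**
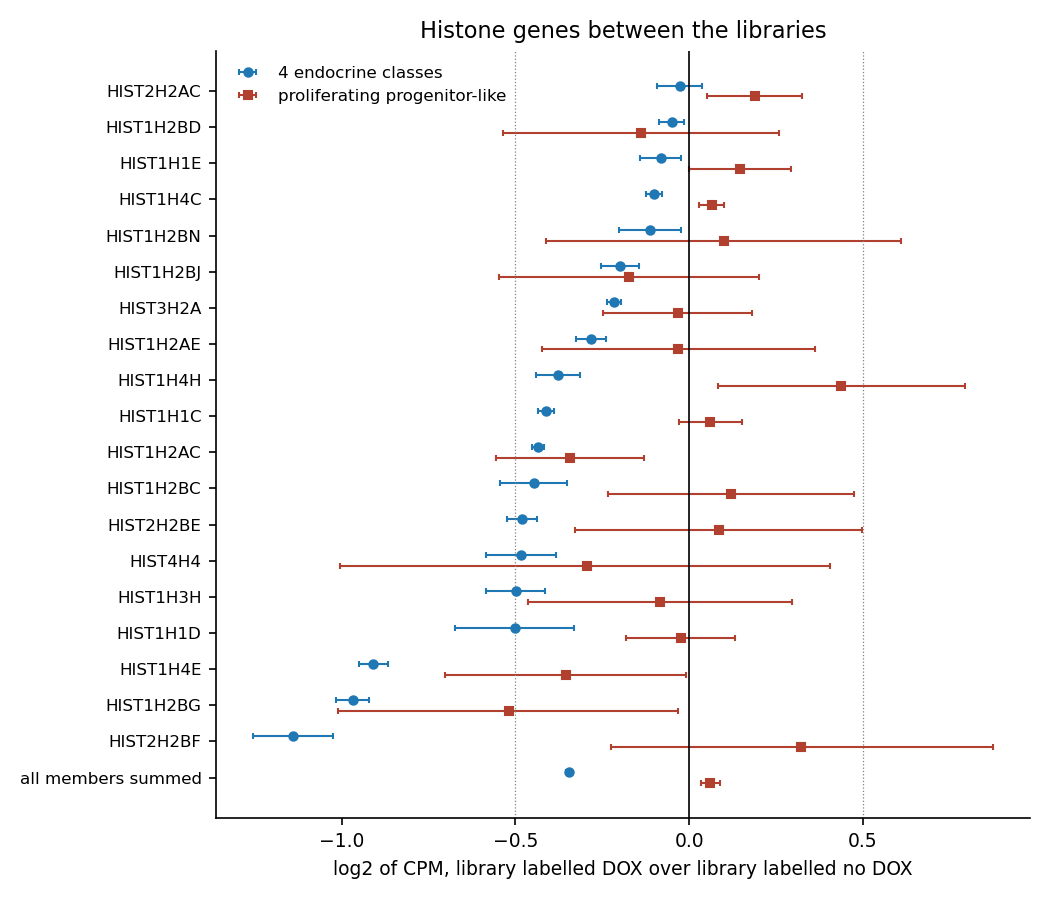
Log2 ratio of CPM in the library labelled DOX over the library labelled no DOX (x axis) for the 19 members with at least 5 CPM in either library and for the sum of all 71, in the 4 endocrine classes together (circles) and in the proliferating progenitor-like class (squares), with 95% intervals for counting error and dotted lines at -0.5 and 0.5. All circles lie below 0, down to -1.14 for HIST2H2BF, while the squares lie on both sides and the squares' sum is at 0.061.

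Several other measures differed between the libraries. The beta-like class held 6934 and 9929 cells, the beta cell progenitor-like class 5212 and 5287, the alpha-like class 5029 and 4115, and the delta-like class 2618 and 1932, so ratios pooled over classes also hold a change of make-up. The median depth of the endocrine cells was 14331 and 12914 UMIs, and their median mitochondrial share was 7.59% and 8.35%. Of the 10 heat shock genes with at least 5 CPM, HSPA1A (94.6 and 27.2 CPM) and HSPA1B (39.8 and 13.9 CPM) were lower by 0.5 or more in the library labelled DOX and the list median was -0.11. Of the 11 immediate early genes, EGR2 and EGR3 were, with a list median of -0.13, and of the 13 mitochondrially encoded genes, MT-ND6 was higher, with a list median of 0.13. Over all genes 0.661% were lower and 0.393% higher by 0.5 or more. The part of these measures in the histone difference was not tested.

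Genes that act with the histone genes were counted in the same way. Of 11 histone genes listed as replication-independent, 5 were higher in the proliferating progenitor-like cells than in the endocrine classes by a log2 ratio of 1 or more. They were H2AFZ (2131 against 477 CPM), H2AFV, H2AFX and H1FX, and CENPA, the H3 of centromeres, which differed most (8.91). Of 14 genes for the transcription and 3' processing of histone mRNA, 7 were higher, among them SLBP, which encodes the protein that binds the stem-loop (150 against 26.8 CPM, 2.48), CASP8AP2 (2.08), LSM11 (2.41), a subunit of the histone-specific U7 particle, and E2F1 (5.71). Of 18 histone chaperones, 10 were higher, including ASF1B (7.59) and CHAF1A (5.26), which place histones on new DNA, NASP (1.87), which holds free histones, and HJURP (9.07), the chaperone of CENPA. CENPA, LSM11, E2F1, ERI1, ASF1B, CHAF1A, CHAF1B and HJURP reached 5 CPM in the proliferating progenitor-like cells alone and were bound to be higher there. In these lists 0 genes were lower by 1 or more, and over all genes 11.4% were higher and 2.35% lower. Some genes named here also belong to the cell cycle lists. Among them are SLBP, CASP8AP2 and NASP in the S list, and CENPA and HJURP in the G2/M list. Between the libraries 0 of 10, 0 of 12 and 0 of 14 genes of the 3 lists were past 0.5 in either direction, where 0.393% of all genes were higher and 0.661% lower, with medians of -0.003, 0.04 and 0.02.

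The genes whose levels were most like those of 2 contrasting members were sought over 12 points, the 6 named classes of each library, among 10303 genes. For HIST1H4C these were HMGB2 (Pearson's r = 0.997 of log2(CPM + 1)), CKS1B, UBE2C, KIF20B and TTF2, and HMGB2 was at 321 and 400 CPM in the proliferating progenitor-like and duct-like classes and at 6.66 to 10.0 CPM in the endocrine classes. For HIST1H2AC they were SLC30A1 (r = 0.953), VPS37D, PORCN, ARMCX1 and SLC39A13, and SLC30A1, a zinc exporter, was at 23.4 and 19.5 CPM in those classes and 47.4 to 55.0 CPM in the endocrine classes. The points share libraries and depth, so these correlations describe the classes and carry no test.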

How the data were processed

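UMI counts per gene and barcode, deposited by the authors without normalization, were used for 2 libraries of human stem cell derivatives. The file headers name Cell Ranger 3.0.2. The submitters' notes also name kallisto, bustools 0.40.0, Scanpy and Seurat, with GRCh38. The study's methods describe counting by kallisto against Ensembl transcripts, while the header of the deposited matrices names Cell Ranger, whose annotation and strand setting are not given in the sources used here. Barcodes under 1000 UMIs were left out, and Scrublet (scanpy 1.11.5, python 3.11.15) marked 8140 (27.4%) and 8339 (26.5%) as doublets, which were removed. Counts were scaled to 10000 per cell and logged, and 50 principal components of highly variable genes without the histone genes were joined by 3 neighbours per library and clustered (Leiden, leidenalg 0.10.2, resolution 0.2). Clusters were named from marker lists, with thresholds set after the data had been seen: a mean log2 fold of at least 1, at least 3 markers, at least 1 marker among the 10 leading genes, and no more of another class. The authors' cell annotation was not used here.

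UMIs were summed over cells, and CPM with exact Poisson and log2 ratios with exact conditional binomial 95% intervals were computed (scipy 1.17.1, numpy 2.4.6, pandas 2.3.3). Shares are given as percent of cells. A gene was counted past the fold at a log2 ratio of 1 between classes or 0.5 between libraries, among genes with at least 5 CPM in either group. In every such count, a gene that reached 5 CPM in 1 group alone was bound to be higher in that group. The calculation was tested on simulated data. Named members were the 3 that the study names, the 5 with the most UMIs, the 10 highest and 5 lowest in the proliferating progenitor-like cells, and the 10 lowest and 5 highest between the libraries; others were named after their values were seen. The members and lists were chosen with earlier results of these data known.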

Additional observations from a re-analysis of the deposited data

Results flagged for a closer look

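The library difference did not have the same sign in all classes. Summed over all members, the log2 ratio (label DOX over label no DOX) was -0.40 in beta-like, -0.18 in beta cell progenitor-like, -0.38 in alpha-like and -0.37 in delta-like cells, and 0.061 in proliferating progenitor-like cells. HIST1H4C was at -0.10 in beta-like, -0.14 in alpha-like and 0.065 in proliferating progenitor-like cells. HIST2H2AC was at -0.15 in alpha-like and 0.19 in proliferating progenitor-like cells. HIST1H4H was at -0.36 in beta-like, -0.28 in beta cell progenitor-like, -0.39 in alpha-like, -0.27 in delta-like and -1.03 in duct-like cells, and 0.44 in proliferating progenitor-like cells. HIST1H2BN was at -0.39 in beta-like cells, 0.22 in alpha-like and 0.29 in delta-like cells. Each of these values has a counting interval that leaves out 0, and since each class has 1 sample per condition the differences between classes were not tested.

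Histone UMIs were also counted in cells outside the comparisons. The unnamed cells with a high mitochondrial share had 414 CPM in sum. The barcodes removed as doublets had 999.7 CPM under the label no DOX and 818 CPM under the label DOX, with median depths of 28188 and 24789 UMIs.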

How the results depend on the processing

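For the proliferating progenitor-like over the endocrine classes, the log2 ratio of the sum was 1.58 without cells over 20% mitochondrial UMIs, 1.68 with another clustering seed, 1.96 without HIST1H2AC, 0.56 without HIST1H4C, 1.5 with CPM over genes other than mitochondrial and hormone genes, 1.60 after thinning to 5000 UMIs, 1.53 at resolution 0.5, and 1.43 (no DOX) and 1.83 (DOX) by library. With at least 20 CPM 11 members were higher, and in the library labelled DOX 4 were lower. For the duct-like cells the values, in the order of those settings that moved it, were 1.01 with doublets kept, 1.70, 0.12, 1.05, 1.32, and 1.23 and 1.52 by library. For the S end over the G2/M end they were -0.49 with another seed, -0.62 without mitochondrial and hormone genes, -0.67 after thinning, -0.43 and -0.70 by library, and -0.24 with narrower ends. For the libraries the sum was at -0.27 without HIST1H2AC, -0.36 without HIST1H4C, -0.32 without mitochondrial and hormone genes, -0.35 in the endocrine classes with or without cells in the cell cycle range, -0.40 in beta-like cells, -0.13 with classes weighted equally, and -0.28 as a mean of log-normalized values. In proliferating progenitor-like cells alone it was 0.061, the median over the 37 members with at least 5 CPM there was 0.061 (for the 19 members compared over all cells it was -0.02) and HIST2H2BF was at 0.32. The count of lower members was 5 after thinning, 7 in beta-like cells, 1 in proliferating progenitor-like cells and 6 at 1 CPM or more. The cause was not tested where a setting does not give it by construction. Named members had the sign reported in 179 of 179 alternatives between classes and 224 of 238 between libraries. The members counted were chosen as the highest and lowest by the same ratios, and the alternatives draw on the same libraries. Members that reached 5 CPM in the proliferating progenitor-like cells alone were also bound to be higher there. The agreement in sign between classes was thus largely set by the choice of members and is no test of the ratios. With doublets kept, no proliferating class was found at resolution 0.2 (those cells fell in an unnamed cluster of 10263), so that setting gave no value for it. Leaving out HIST1H4C, mitochondrial and hormone genes, or all but the proliferating or non-cycling cells was added after the data had been seen. No paired analysis was possible because there is 1 library per condition and the labels carry no replicate numbers. Depth limits genes near 1 UMI in few cells, such as HIST1H3B in endocrine cells.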
